A study of Mus musculus with 4 samples.

Results

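The genes described here build and run mitosis and cytokinesis: cyclins and mitotic kinases, the spindle checkpoint, the kinetochore, the spindle, the cytokinetic ring and condensin. They are the 53 rows of the count table whose Ensembl identifier maps to the listed symbols, out of 23390 gene models, and all 53 had enough counts to be tested. Their RNA was counted in mouse marrow cultures driven toward osteoclasts, multinucleated cells that resorb bone. One group was given 10 µM BMS-582949, an inhibitor of the kinase p38α, and the other was given the solvent DMSO, with 2 libraries in each group. Cells of both groups were wild-type C57BL/6J bone marrow cells that were grown for 3 days with L929 supernatant at the equivalent of 20 ng/ml M-CSF, reseeded as macrophages and given 40 ng/ml RANKL. RNA was taken at day 4, and the sources give the time with the compound as 3 days in one place and 4 days in another. The treatment label set the groups, since the protocol text names the compound for all 4 samples alike.

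In cycling cells, Cdk1 bound to cyclin A or cyclin B drives entry into mitosis, the kinetochores hold chromosomes on spindle microtubules, and the checkpoint keeps the anaphase-promoting complex (APC/C) inactive until every chromosome is attached. The APC/C then destroys cyclin B and securin, separase cuts the cohesin rings that hold sister chromatids together, and the central spindle and actomyosin ring divide the cell. Most RNAs of this machinery are made in late S, G2 and M phase and are low in cells that have left the cycle. Osteoclasts become multinucleated by fusion of precursors that stop dividing, and their macrophage precursors divide in response to M-CSF.

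Division genes were higher with BMS-582949 nearly throughout. Of the 53 genes, 52 were called higher and 0 lower (quasi-likelihood test in edgeR, called at a p under 0.05 after Benjamini-Hochberg adjustment over 13214 tested genes), where 30.5% of all tested genes were called higher and 29.7% lower. The remaining gene, Pttg1, had an adjusted p of 0.597. A rise of at least 2-fold was found for 51 of the 53, against 9.94% of tested genes. Both BMS-582949 libraries lay above both DMSO libraries for 52 of them, against 41.4% of tested genes. The genes were chosen with earlier results of these data known, so these contrasts with all tested genes are descriptive only. The median log2 fold change of the 53 genes was 1.73, a 3.32-fold rise, and the median over all tested genes was 0.027. With libraries scaled by total count alone, the median of all tested genes moved to 0.41 and that of the division genes to 2.11, and the calls of all genes split 75.1% higher to 24.9% lower, where TMM scaling gave 50.7% to 49.3%. Under total count scaling 51% of all tested genes were called higher and 17% lower.

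The changes of most of the 53 genes fell in a narrow range, with 50 of them within 0.5 of their median on the log2 scale. The quartiles of the division genes were 1.61 and 1.89 on the log2 scale, and those of all tested genes were -0.50 and 0.50. Setting aside the lowest pair, Pttg1 and Espl1, the other 51 ranged from 1.41 (Smc4) to 2.47 (Cenpf), or 2.65-fold to 5.55-fold. Libraries of the same group differed little, with a median absolute log2 ratio between replicates of 0.0918 over the 53 genes with BMS-582949 and 0.116 with DMSO. Replicates were farthest apart for Knl1 with BMS-582949 (0.252) and for Kif4 with DMSO (0.632).

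**Figure D1:**
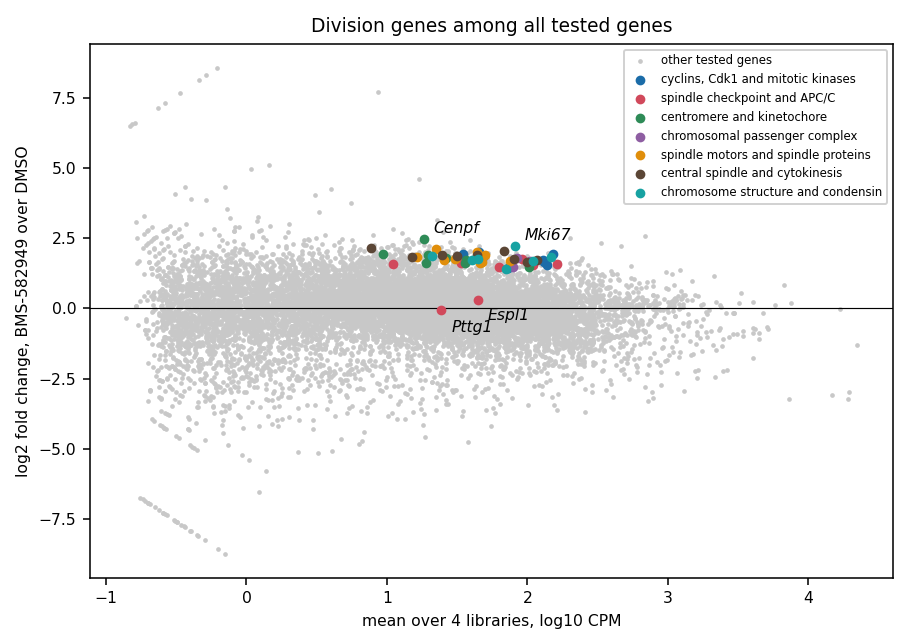
Log2 fold change of BMS-582949 over DMSO (y axis) against the mean level over 4 libraries (x axis, log10 CPM) for 13214 tested genes, with the 53 division genes coloured by role and the others in grey. The division genes form a band between 1.41 and 2.47, apart from Espl1 at 0.28 and Pttg1 at -0.074.

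Together the division genes took 0.5728% (95% Clopper-Pearson interval 0.5704% to 0.5752%) and 0.5687% (0.5663% to 0.5711%) of all counts in the BMS-582949 libraries. In the DMSO libraries the shares were 0.1359% (0.1347% to 0.1371%) and 0.1384% (0.1372% to 0.1396%). The groups did not overlap, and the intervals cover counting error only. These are whole cultures, so a larger share of dividing cells and more RNA of these genes per cell cannot be told apart. Total counts were between 37455168 and 39255925 in the BMS-582949 libraries and between 35331889 and 36178333 in the DMSO libraries, and division genes had from 85 to 10939 counts in a library.

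Osteoclast markers were plentiful in the DMSO libraries and fell with the compound, all 10 of 10 listed, with summed levels of 12156 and 12315 CPM (counts relative to the TMM-scaled library total) in BMS-582949 and 99133 and 103354 CPM in DMSO. Of 10 macrophage markers 6 rose and 2 fell, with summed levels of 11143 and 11919 CPM in BMS-582949 and 10574 and 10793 CPM in DMSO. Lyz2, Cd68 and Csf1r dominate these sums, with log2 fold changes of 0.82, -1.35 and -1.16. Less abundant markers hardly count in them, such as Cx3cr1, which had the largest change of the list at 4.59. Of 7 tested fibroblast and stromal markers 1 rose and 4 fell, and the 8 listed summed to 465 and 472 CPM in BMS-582949 and 719.6 and 663 CPM in DMSO. Of 9 tested granulocyte and progenitor markers 3 fell and 0 rose. The 3 that fell, Camp, Ltf and Kit, were scarce, with group means of at most 3.01 CPM. The 11 listed summed to 14 and 17 CPM in BMS-582949 and 22 and 21.1 CPM in DMSO, with Ly6g at 0 throughout. All these marker counts are to be read against all tested genes, of which 30.5% were called higher and 29.7% lower. No erythroid, B cell or T cell marker was called among the 3 tested of each list. Erythroid markers, with Car1 at 0, summed to between 1.29 and 1.68 CPM in every library, and B and T cell markers, with Cd3e and Cd3g at 0, to between 3.44 and 4.84 CPM. The part of these other changes in the rise of division genes was not tested.

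The promoters of these division genes are shown because many cell cycle promoters share short elements near the start. One is the cell cycle genes homology region (CHR), which the DREAM and MuvB complexes bind. Another is the CCAAT box, which the factor NF-Y binds. The genes were listed by their role in division, so motif shares describe that list. A link between the motifs and the change with BMS-582949 was not tested. RefSeq windows on GRCm38.p6, from 250 bases before to 50 after the start, were found for 46 of the 53 genes. In 34 of the 46 the last 30 bases occur in a GENCODE transcript of that gene, and in 6 (Cdca8, Cit, Kif2c, Kif4, Mad2l1 and Pttg1) the window does not reach the start of the GENCODE gene model, so positions hold for the RefSeq start only. CHR was searched as TTTGAA or TTCGAA and the NF-Y box as CCAAT, on both strands, and in 1 promoter (Cdca8) the motifs overlapped. The stretch from 120 bases before to 30 bases after the start follows for the most abundant member of a role group where it was found (Ube2c, Cenpa, Birc5, Racgap1, Top2a), for Cenpf, which changed most, and for Espl1 and Pttg1, which changed least. Cenpf, Espl1 and Pttg1 were picked after their values were seen. Capitals mark CHR and CCAAT matches, as read on the strand of the gene, so that TTCAAA and ATTGG are matches on the opposite strand.
Cenpf (chr1:189688057-189688206, minus strand): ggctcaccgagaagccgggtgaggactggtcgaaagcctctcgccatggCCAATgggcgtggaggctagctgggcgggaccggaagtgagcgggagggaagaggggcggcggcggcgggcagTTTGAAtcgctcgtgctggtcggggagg
Top2a (chr11:99024160-99024309, minus strand): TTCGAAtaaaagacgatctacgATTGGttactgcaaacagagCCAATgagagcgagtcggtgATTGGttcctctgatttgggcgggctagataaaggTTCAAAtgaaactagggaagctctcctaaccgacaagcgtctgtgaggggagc
Racgap1 (chr15:99651627-99651776, minus strand): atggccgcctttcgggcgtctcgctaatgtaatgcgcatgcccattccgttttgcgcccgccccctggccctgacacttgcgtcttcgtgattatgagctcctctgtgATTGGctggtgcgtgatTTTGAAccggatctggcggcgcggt
Birc5 (chr11:117849117-117849266, plus strand): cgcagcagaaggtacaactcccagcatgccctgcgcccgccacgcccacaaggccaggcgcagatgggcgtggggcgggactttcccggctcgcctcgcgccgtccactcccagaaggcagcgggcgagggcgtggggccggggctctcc
Ube2c (chr2:164769809-164769958, plus strand): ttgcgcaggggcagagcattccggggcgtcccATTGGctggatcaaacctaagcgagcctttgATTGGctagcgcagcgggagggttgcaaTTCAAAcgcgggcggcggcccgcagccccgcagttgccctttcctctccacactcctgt
Cenpa (chr5:30666766-30666915, plus strand): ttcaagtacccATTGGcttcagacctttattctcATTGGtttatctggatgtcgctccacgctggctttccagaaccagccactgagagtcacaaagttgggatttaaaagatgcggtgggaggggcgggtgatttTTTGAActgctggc
Espl1 (chr15:102296173-102296322, plus strand): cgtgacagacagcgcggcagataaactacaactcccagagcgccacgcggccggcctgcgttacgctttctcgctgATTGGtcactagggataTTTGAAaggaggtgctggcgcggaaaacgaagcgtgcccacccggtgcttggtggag
Pttg1 (chr11:43425952-43426101, minus strand): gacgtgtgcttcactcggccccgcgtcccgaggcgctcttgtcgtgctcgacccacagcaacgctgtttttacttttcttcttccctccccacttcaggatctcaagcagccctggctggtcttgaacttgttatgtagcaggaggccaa

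A CHR match was present in 35 of the 46 promoters (76.1%), in 14% of 9900 promoters found for tested genes and in 19.4% of 27025 promoters of all genes. Within 40 bases before to 50 bases after the start, 32 of the 46 had a CHR match (69.6%), against 3.24% for tested genes. This narrower window was set after the positions were seen. An NF-Y box was present in 32 of the 46 (69.6%) and in 39.1% of promoters of tested genes. Both motifs were present in 29 (63%), against 6.05% of tested genes, and neither in 8 (17.4%), against 52.9%. Among the 40 windows that hold the GENCODE start, CHR was present in 32 (80%) and neither motif in 5 (12.5%). Of the sequences above, Cenpf has a CHR match that begins at base 3 of the transcript with a CCAAT match upstream, while Birc5 has no match in the whole window. The Pttg1 window has none either, but its RefSeq start lies 270 bases inside the GENCODE gene model, so the sequence before the GENCODE start was not searched. Birc5 rose by 1.70 on the log2 scale, close to the median of all 53. Espl1, picked for its small change of 0.28, carries both motifs, with the CHR match 27 bases before the start. Whether the motifs go with the size of the change was not tested. A match is only these letters in this window, and base composition was not matched between the sets.

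**Figure D2:**
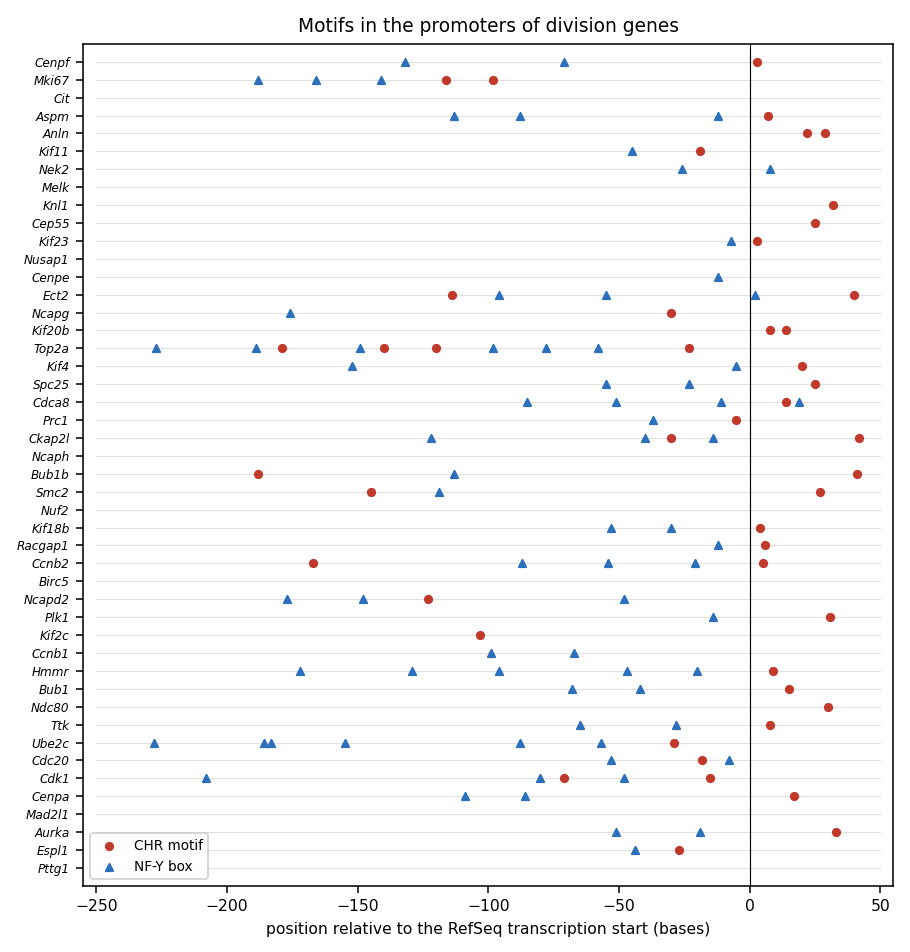
Positions of CHR motifs (circles) and NF-Y boxes (triangles) relative to the RefSeq transcription start (x axis, bases) in the 46 division gene promoters, ordered from the largest log2 fold change at the top to the smallest at the bottom. CHR motifs gather around the start and NF-Y boxes upstream of them, and 8 windows, among them those of Birc5 and Pttg1, show neither.

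In what follows, a change given without the word fold is a log2 fold change of BMS-582949 over DMSO. Every adjusted p is from the edgeR test with Benjamini-Hochberg adjustment. Where groups are said not to overlap, both BMS-582949 libraries lay above both DMSO libraries, which held for 41.4% of all tested genes. Cyclins, Cdk1 and the mitotic kinases were called higher in 8 of 8 cases, with a median log2 fold change of 1.69. Ccna2, which encodes cyclin A2, had 238 and 248 CPM in the BMS-582949 libraries and 60.5 and 65.2 CPM in the DMSO libraries, the most abundant of this set by CPM. Its libraries were close within each group and far apart between them (log2 fold change 1.95 ± 0.067 SE, adjusted p = 2.4e-10). The B-type cyclin genes moved alike, with Ccnb1 at 197 ± 0.699 CPM in BMS-582949 and 63.1 ± 1.81 CPM in DMSO and Ccnb2 at 199 ± 10.0 and 60.5 ± 4.19 CPM (SD, n = 2 each). Of the distinct 50-base stretches of Ccnb1 transcripts, 23.4% also occur in another annotated gene, chiefly the pseudogene Ccnb1-ps, so part of its count is uncertain. Cdk1, the kinase they activate, rose by 1.53 ± 0.070 (SE).

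Among the kinases listed with the cyclins, Nek2, which acts in centrosome separation, changed most and Aurka, the Aurora kinase of the spindle poles, least. Nek2 had 74.6 and 70.0 CPM in BMS-582949 and 18.8 and 17.6 CPM in DMSO (1.99 ± 0.086 SE, adjusted p = 1.4e-09). Aurka had 106 and 107 CPM in BMS-582949 and 38.0 and 41.5 CPM in DMSO (1.42 ± 0.072 SE, adjusted p = 5.3e-09). Neither gene's groups overlapped, and their 95% intervals (1.80 to 2.18 and 1.27 to 1.58) do not overlap each other. Plk1, a kinase of many mitotic steps, and Melk lay between them at 1.66 and 1.94.

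The spindle checkpoint and APC/C set held both genes that stood below all others. The checkpoint genes Bub1, Bub1b, Ttk and Mad2l1 and the APC/C activator Cdc20 rose 3.02-fold, 3.37-fold, 3.02-fold, 2.74-fold and 2.92-fold. Bub1b, the largest of them, had 144 and 137 CPM in BMS-582949 and 37.8 and 45.7 CPM in DMSO (adjusted p = 4.3e-09 with edgeR). Ube2c, the ubiquitin-conjugating enzyme of the APC/C and the most abundant by CPM, had 226 and 259 CPM in BMS-582949 and 85.4 and 75.9 CPM in DMSO. Its exons overlap those of Tnnc2 on the other strand over 22.8% of their length, and Tnnc2 had 0 counts in every library. Some 50-base stretches of Cdc20 (10.4%) and Plk1 (6.56%) recur in other annotated genes.

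Pttg1, which encodes securin, the inhibitor of separase, had 23.2 and 24.4 CPM in BMS-582949 and 26.3 and 23.8 CPM in DMSO. The groups overlapped, and the log2 fold change of -0.074 had a 95% interval of -0.32 to 0.17 (adjusted p = 0.597). Scaled by total count alone the change was 0.31 and called higher (adjusted p = 0.0297), still below the shift of 0.41 that this scaling gave the median gene. Espl1, the gene of separase itself, had 52.2 and 45.8 CPM in BMS-582949 and 39.5 and 41.2 CPM in DMSO. These groups did not overlap, and the rise of 0.28 ± 0.088 (SE, 95% interval 0.087 to 0.47) was called at an adjusted p of 0.0156. The call ended without BMS-582949 replicate 1 (0.18, adjusted p = 0.180) and without DMSO replicate 1 (0.25, adjusted p = 0.0660). The upper bounds of both intervals lie under 1.19, the lowest bound among the other 51 genes.

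**Figure D3:**
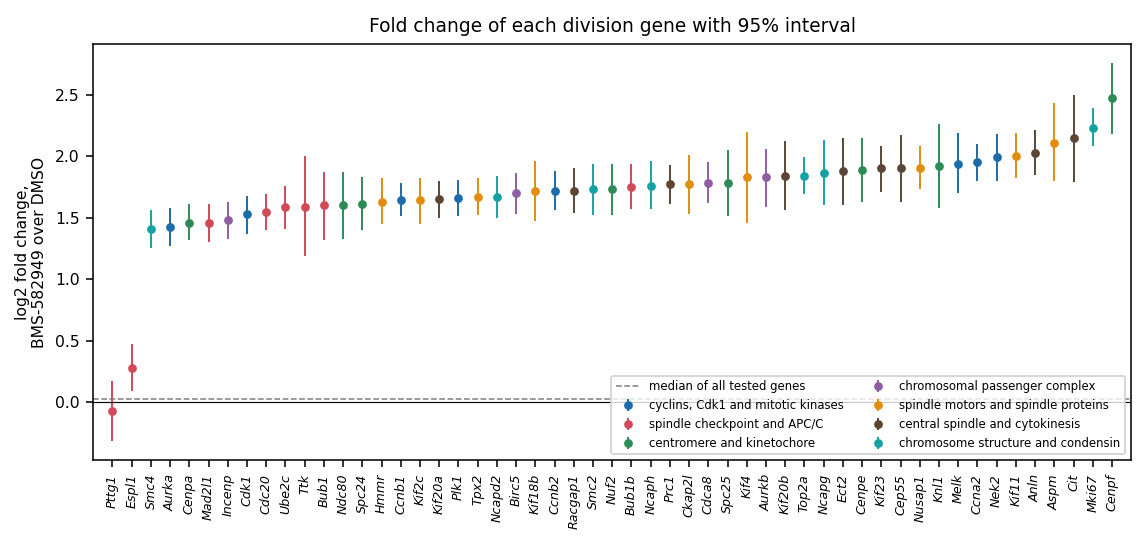
Log2 fold change of BMS-582949 over DMSO (y axis) with its 95% interval for each of the 53 division genes, in order of size and coloured by role. Pttg1 and Espl1 lie near the dashed median of all tested genes (0.027), and the other 51 run from Smc4 at 1.41 to Cenpf at 2.47 in order.

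All 8 centromere and kinetochore genes were called higher, with a median of 1.76. Cenpf, a large protein of the outer kinetochore, changed most of all 53, with 29.6 and 32.1 CPM in BMS-582949 and 6.08 and 5.04 CPM in DMSO. The log2 fold change was 2.47 ± 0.13 (SE, adjusted p = 9.1e-09), and 9 other genes had 95% intervals that overlapped its own of 2.18 to 2.76. Cenpa, the histone H3 variant that marks centromeres, was the most abundant of the set by CPM and changed least (1.46 ± 0.066 SE). It had 144 and 154 CPM in BMS-582949 and 53.8 and 54.5 CPM in DMSO, with the groups well apart. The 4 subunits of the Ndc80 complex, which grips microtubule ends, all rose, Ndc80 3.03-fold, Nuf2 3.32-fold, Spc24 3.06-fold and Spc25 3.43-fold. The kinesin gene Cenpe changed by 1.89 and Knl1, the scaffold for checkpoint proteins, by 1.92.

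The chromosomal passenger complex corrects faulty attachments and then moves to the midzone, and its 4 genes were all called higher. Aurkb, its kinase, had 71.9 and 78.5 CPM in BMS-582949 and 18.8 and 23.6 CPM in DMSO, the largest change of the complex at 1.83. Birc5, which encodes survivin and was the most abundant by CPM, had 149 and 167 CPM in BMS-582949 and 50.3 and 47.3 CPM in DMSO. Incenp, the scaffold, changed least, by 1.48 ± 0.071 (SE), with 119.6 and 111 CPM in BMS-582949 and 40.5 and 42.2 CPM in DMSO. None of these genes overlapped between groups, and Cdca8, the borealin gene, lay between Aurkb and Birc5 at 1.78.

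Spindle motors and spindle proteins rose in 9 of 9 cases, with a median of 1.77. Aspm, a spindle pole protein gene, had 37.6 and 34.6 CPM in BMS-582949 and 7.14 and 9.54 CPM in DMSO (2.11 ± 0.14 SE, adjusted p = 7.7e-08), the largest change here. Tpx2, the activator of Aurora A, was the most abundant by CPM with 118 and 112 CPM in BMS-582949 and 35.5 and 36.8 CPM in DMSO. Both genes were higher in each BMS-582949 library than in either DMSO library. Hmmr changed least, by 1.63 (70.3 and 69.0 CPM in BMS-582949, 23.3 and 21.5 CPM in DMSO). Kif11, the motor that pushes spindle poles apart, had 71.9 and 68.5 CPM in BMS-582949 and 17.8 and 17.3 CPM in DMSO. The groups of these 4 genes did not overlap. The microtubule depolymerase gene Kif2c rose by 1.64 and the chromokinesin gene Kif4 by 1.83. The exons of Kif4 overlap Pdzd11 on the other strand over 15.1% of their length, and Pdzd11 fell by 0.54 on the log2 scale.

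The central spindle and cytokinesis genes had the highest median of the 7 role groups, 1.88, with 9 of 9 called higher. A test between role groups was not made. Cit, the gene of citron kinase at the contractile ring, changed most, with 12.9 and 12.3 CPM in BMS-582949 and 2.73 and 2.95 CPM in DMSO (2.15 ± 0.16 SE). Anln, which encodes the ring scaffold anillin, followed at 2.03 ± 0.083 (SE). Racgap1, a subunit of the centralspindlin complex, was the most abundant by CPM, with 179.6 and 179 CPM in BMS-582949 and 49.6 and 59.2 CPM in DMSO. Its motor partner Kif23 rose by 1.90 and Ect2, the RhoA activator that binds it, by 1.88. Kif20a, a midzone kinesin gene, changed least (1.65 ± 0.068 SE), with 153 and 148 CPM in BMS-582949 and 46.3 and 49.7 CPM in DMSO. Its exons overlap Cdc23 over 29.3% of their length, and Cdc23 rose by 0.50 to 59.0 and 57.4 CPM, against 41.8 and 40.8 CPM in DMSO. Prc1, which bundles midzone microtubules, and Cep55, which recruits the abscission machinery, changed by 1.77 and 1.90.

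Mki67, whose protein Ki-67 coats mitotic chromosomes and is a standard marker of proliferating cells, had 130.3 and 139 CPM in BMS-582949 and 29.0 and 28.3 CPM in DMSO. Its change of 2.23 ± 0.071 (SE, adjusted p = 1.4e-10) was the second largest of the 53, and its interval of 2.08 to 2.39 overlaps that of Cenpf. Top2a, the topoisomerase that untangles sister chromatids, had 239.6 and 219 CPM in BMS-582949 and 65.2 and 63.1 CPM in DMSO (1.84). All 5 condensin genes were called higher. The core subunit gene Smc4 changed least of the 51, with 99.5 and 104 CPM in BMS-582949 and 39.3 and 37.4 CPM in DMSO (1.41 ± 0.070 SE), while its partner Smc2 changed by 1.73. The other subunits Ncapd2, Ncapg and Ncaph changed by 1.67, 1.86 and 1.76.

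**Figure D4:**
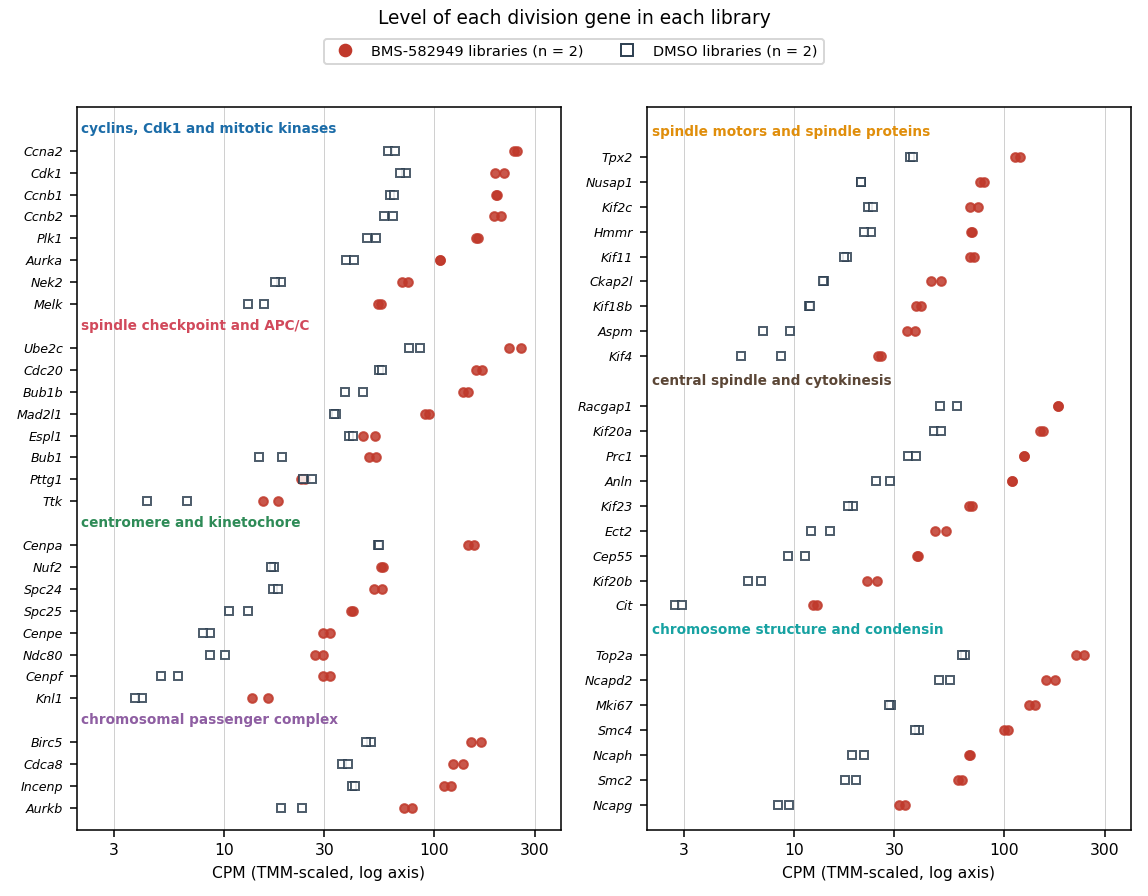
CPM (x axis, log scale) of each division gene in the 2 BMS-582949 libraries (filled circles) and the 2 DMSO libraries (open squares), grouped by role and ordered by mean level. For every gene but Pttg1 both circles lie to the right of both squares, narrowly for Espl1.

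Per kilobase of annotated exon, Ccnb2 was highest in both groups, at 130.3 CPM per kb with BMS-582949 and 39.5 CPM per kb with DMSO. Ube2c (93.2 and 31.0), Cdc20 (87.2 and 29.9) and Plk1 (72.6 and 22.9 CPM per kb) came next in the same order in both groups. Cit was lowest, at 0.767 CPM per kb with BMS-582949 and 0.173 with DMSO. The median level of the 53 genes was 15.1 CPM per kb with BMS-582949 and 4.61 CPM per kb with DMSO. Exon length here is the union over all annotated transcripts, which lowers the level of genes with long minor isoforms. Pttg1 stood at 11.9 CPM per kb with BMS-582949 and 12.5 with DMSO, so it was above the median of the 53 in DMSO and below it with the compound.

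On GRCm38 (GENCODE M21), Cenpf (ENSMUSG00000026605) lies on chromosome 1 at 189640606 to 189688086, Mki67 (ENSMUSG00000031004) on chromosome 7 at 135689784 to 135716361 and Ccna2 (ENSMUSG00000027715) on chromosome 3 at 36564865 to 36572150. Pttg1 (ENSMUSG00000020415) lies on chromosome 11 at 43420250 to 43426251 and Espl1 (ENSMUSG00000058290) on chromosome 15 at 102296266 to 102324357. Counts are given per gene model, with no split into exons or transcripts. Exons of Ccna2, Ncapg and Prc1 overlap genes on the other strand over 12.5%, 13.4% and 11.1% of their length. The strand setting of the counting is unknown here, so reads of a gene and its antisense partner cannot be told apart.

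Other genes of division were read from 7 further lists, also chosen with earlier results of these data known. Their counts are to be read against all tested genes, of which 30.5% were called higher and 29.7% lower. All 32 of the first, further spindle, kinetochore and cytokinesis genes, were called higher, with a median log2 fold change of 1.64 and Kif15 (2.02) and Shcbp1 (1.94) at the top. Of 21 tested regulators of mitotic entry and exit 17 rose and 2 fell, with a median of 1.25. Foxm1, a transcription factor of mitotic genes, rose by 1.79 and Fbxo5, an APC/C inhibitor, by 1.77. Ensa and Arpp19, whose products block a mitotic phosphatase, fell by 0.70 and 0.32, and the number that fell was 1 when scaled by total count alone and also without DMSO replicate 1. Of 19 inner kinetochore and Mis12 complex genes 17 rose and 1 fell, with Cenph at 1.66, Cenpn at 1.65 and Cenpx at -0.28. With total count scaling, where 17% of all tested genes were called lower, none of these 19 fell.

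The remaining 4 lists include machinery that cells also use outside division. Of 14 core subunits of the APC/C 6 rose and 2 fell, with a median of 0.0063, where 30.5% of all tested genes rose and 29.7% fell. The counts were 10 and 1 with total count scaling (median 0.39, below the shift of 0.41), where 51% of all tested genes rose and 17% fell. Anapc5 rose by 0.94 and Anapc1 by 0.74, while Anapc13 and Anapc15 fell by 1.11 and 0.43. Cohesin and condensin II genes rose in 11 of 13 cases with a median of 0.56, with the condensin II genes Ncapd3 at 1.35 and Ncapg2 at 1.33 on top. Of 26 actomyosin, septin and ESCRT-III genes of cytokinesis 6 rose and 10 fell, with a median of -0.069, and 18 rose and 3 fell with total count scaling (median 0.31, also below that shift), to be read against the same shares of all tested genes. The septin gene Septin6 rose by 1.13 and Myh10, a non-muscle myosin, by 0.64, while Septin9 and the ESCRT-III gene Chmp4b fell by 0.79 and 0.71. DNA replication genes rose in 29 of 30 cases with a median of 1.38, led by Mcm10 (1.84) and Cdc6 (1.79). Of the 30, 24 rose at least 2-fold, against 9.94% of all tested genes. Whether these lists differ from the 53 genes was not tested.

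A CHR match in the promoter was found for 18 of 24 genes of the first of those lists (75%), 7 of 16 entry and exit regulators (43.8%), 5 of 18 inner kinetochore genes (27.8%) and 6 of 23 DNA replication genes (26.1%). It was found for 4 of 10 cohesin and condensin II genes (40%), 2 of 13 APC/C subunits (15.4%) and 5 of 22 actomyosin, septin and ESCRT-III genes (22.7%). Both motifs together were found in 14 of the 24 promoters of the first list and in none of the 13 APC/C or 22 actomyosin, septin and ESCRT-III promoters. Among promoters of tested genes, 14% held a CHR match and 6.05% held both motifs. In lists this small, 0 with both lies close to that share.

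**Figure D5:**
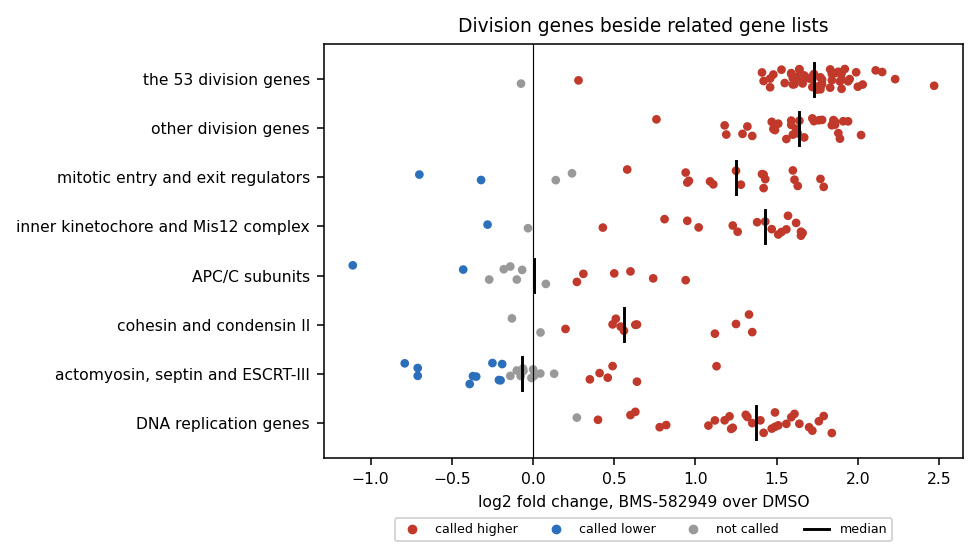
Log2 fold change of BMS-582949 over DMSO (x axis) of every tested gene in the 53 division genes and 7 related lists, coloured by call, with a bar at each median. The medians run from 1.73 for the 53 genes and 1.64 for other division genes to 0.0063 for APC/C subunits and -0.069 for actomyosin, septin and ESCRT-III genes.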

How the data were processed

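RNA was sequenced in 2 BMS-582949 and 2 DMSO libraries. The authors deposited whole-number counts per gene model. The columns sum to different totals, and the counts were taken as not normalized. Trimmomatic 0.36, HISAT2 2.0.4, DESeq2 1.30.1 and GRCm38 are named in the submitters' processing notes. The sources used here give no counting tool, annotation or strand setting. Of 23390 models, 22036 have Ensembl identifiers, of which 22022 took symbols from GENCODE M21.

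The test was edgeR 4.0.16 under R 4.3.3 (filterByExpr at a minimum count of 10, TMM, glmQLFit and glmQLFTest, no covariates, 2 residual degrees of freedom), on 13214 genes, with Benjamini-Hochberg adjustment over all of them. The script was tested on simulated data. CPM are TMM-scaled, and fold changes are BMS-582949 over DMSO. Counts of replicates differed by more than sampling noise (13.7 chi-square units per degree of freedom for BMS-582949, 9.62 for DMSO), and replicates were kept as 2 samples each. Whether they came from separate animals or cultures is unstated, so the p-values reflect the spread among these 4 samples and that spread may be technical. An exact permutation test of 2 against 2 cannot go below 0.333, so none was used.

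Members and lists were chosen with earlier results of these data known. Values per library are given for each role group's most abundant, most changed and least changed member, and of each further list up to 2 called genes per direction with a mean of at least 1 CPM are named. Alternatives were other scalings, filters, tests (DESeq2 1.42.0, limma-voom in limma 3.58.1), thresholds, a replicate block, leaving out each library and, added after seeing the data, leaving out models whose exons overlap another over at least 10% of their length.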

Additional observations from a re-analysis of the deposited data

How the results depend on the processing

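Of the 53 genes, 51 to 53 were called higher and 0 lower under every alternative run, except that without models with overlapping exons 46 of the remaining 47 were called higher. The 53 came with scaling by total count alone, where Pttg1 turned to 0.31 and the median of all tested genes was 0.41. Without BMS-582949 replicate 1 and without DMSO replicate 1 the number was 51, since Espl1 was no longer called. The median log2 fold change of the 53 genes was 2.11 with total count scaling, 1.79 with upper-quartile scaling, 1.70 with DESeq2 size factors and 1.70 with DESeq2, and 1.70 to 1.76 when each library was left out. The 51 genes other than Pttg1 and Espl1 kept their direction and call in each of these fits that tested them, at 1.31 to 2.85 on the log2 scale; Ccna2, Kif20a, Kif4, Ncapg, Prc1 and Ube2c were not in the fit without overlapping models. Over the tested genes, the deviations of BMS-582949 replicate 1 and DMSO replicate 1 from their group means had a correlation of -0.0776. This single pair cannot show whether samples with the same number shared an animal, culture or batch. With a replicate block 52 were called higher with a median of 1.73. A minimum change of 2-fold kept 51 of the 53. It kept 0 of the 6 APC/C subunits and 4 of the 11 cohesin and condensin II genes that rose. Of the APC/C subunits that fell it kept Anapc13 (-1.11) and not Anapc15 (-0.43). Of the actomyosin, septin and ESCRT-III genes it kept 1 that rose and 0 that fell. Over all genes it left 1314 higher and 1499 lower, against 4035 and 3919. Leaving out models with overlapping exons removed both APC/C subunits that were called lower, Anapc13 and Anapc15, so it did not test their calls.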
